A study of Mus musculus with 12 samples.

Results

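Which genes does extra miR-155 change in marrow cells that already carry Hoxa9? The comparison set 3 arrays of wild-type cells with Hoxa9 and added miR-155 against 3 arrays of wild-type cells with Hoxa9 and the vector labelled MIG, 6 of the 12 arrays in the series. Every probe set with 1 gene symbol was a member, 14996 of the 23332 on the array, and these stand for 14860 different genes. Per the labels, all cells were primary bone marrow cultures of progenitor stage from female C57B/6 mice, 12 weeks old and treated with the drug 5-FU, and all overexpressed Hoxa9 after transduction with an MSCV construct. They grew in serum-containing DMEM with the cytokines IL3, SCF and IL6. The series' design text speaks of 3 independent experiments for each condition. It also names MIY, another empty vector, as the partner of miR-155, and the labels do not say which vector carried miR-155, so an effect of the vector was not tested. The other arrays were 3 from miR-155 knockout mice, again with Hoxa9 and MIG, 1 with Hoxa9 and Meis1, and 2 with Hoxa9 and MIY. The knockout and MIY arrays lent their spread to the fit, and the single Meis1 array lent none. Levels on these other arrays are given where stated. Values are levels on the log2 scale, so each unit is a doubling.

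MicroRNAs are short RNAs that lead an Argonaute protein to messenger RNAs. Pairing of the miRNA's seed, the bases near its start, with sites that mostly lie behind the coding region lowers the message and the protein made from it. miR-155 is found in myeloid and lymphoid cells, is induced by inflammatory signals and is high in several leukaemias. Hoxa9 is a homeobox transcription factor that keeps myeloid progenitors growing, and Meis1 is its cofactor.

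The sequences of the added miRNA are shown because the seed fixes which messages it can pair with. They are from RefSeq (GRCm38.p6). The hairpin lies at chr16:84714140-84714204 on the plus strand, the 5p arm at chr16:84714143-84714165 and the 3p arm at chr16:84714182-84714202. Capitals mark bases 2 to 8, the seed, in the mature arms, and both mature arms in the hairpin.
mmu-miR-155-5p: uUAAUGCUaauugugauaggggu
mmu-miR-155-3p: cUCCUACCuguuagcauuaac
Mir155 hairpin: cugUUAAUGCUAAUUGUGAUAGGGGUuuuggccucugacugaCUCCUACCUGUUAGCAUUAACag
Among 1679 mature mouse miRNAs in the same table, 0 others share the seed of either arm. No probe set was named for miR-155 or its host gene, so its own level was not measured. Seed matches in messages were not analysed here.

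The cultures were myeloid by their markers. Hoxa9 read 13.22, 13.25 and 13.20 with miR-155, against 13.24, 13.23 and 13.29 with MIG. Meis1 read 7.49, 7.68 and 7.39 with miR-155 and 7.57, 7.58 and 7.58 with MIG. Neither passed the test, with log2 changes of -0.03 ± 0.06 for Hoxa9 (SE, limma adjusted p = 0.907) and -0.06 ± 0.10 for Meis1 (adjusted p = 0.878). The sign of the Hoxa9 change turned under other scalings of the arrays (0.032 and 0.007), and that of Meis1 without miR-155 array 3 (0.007). The 5 measured neutrophil markers averaged 11.60 to 11.64 on the miR-155 arrays and 11.98 to 12.06 on the MIG arrays. B, T, NK and stromal markers averaged 3.06 to 5.94 with miR-155 and 2.99 to 6.16 with MIG, and 0 of those 8 markers were called changed. Other classes were not as low. The 2 endothelial markers, at 4.79 and 11.2, averaged 7.95 to 8.06 with miR-155 and 7.92 to 8.06 with MIG. The 3 megakaryocyte markers averaged 8.17 to 8.32 with miR-155 and 8.34 to 8.5 with MIG. Of the first 2 principal components of the 6 arrays, the first (43.2% of variance) separated the groups, and on the second (18.9%) miR-155 array 3 stood apart from the other 5, at 16.98 against -12.60 to 5.16.

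Added miR-155 went with many falls and few rises. Of the 14996 probe sets, 501 were called changed (3.34%, limma, Benjamini-Hochberg adjusted p under 0.05). The 409 that fell (2.73%) outnumbered the 92 that rose (0.613%). The falls were also larger. Among genes called, 91 fell and 3 rose at least 2-fold, and 226 fell and 32 rose at least 1.5-fold. The median log2 change was -0.64 for genes that fell and 0.48 for genes that rose, and the smallest called change had a size of 0.28. Over all probe sets the median was -0.01. Arrays of the groups did not overlap for 3791 probe sets (25.3%), and for 2289 of them (15.3%) the miR-155 arrays were the lower ones. All 501 called probe sets were among them.

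The balance of falls to rises depended on level. Among the genes of lowest level, below 3.84, 6 rose and 0 fell. Between levels of 6.09 and 6.89, 14 rose and 60 fell, and above 9.74, 8 rose and 59 fell. The share of genes called was 0.404% below 3.84 and 5.25% between 6.89 and 7.65, with 1486 genes in each of these ranges. The plot of change against level, which takes the mean of the miR-155 and MIG groups instead, shows a similar asymmetry.

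**Figure D1:**
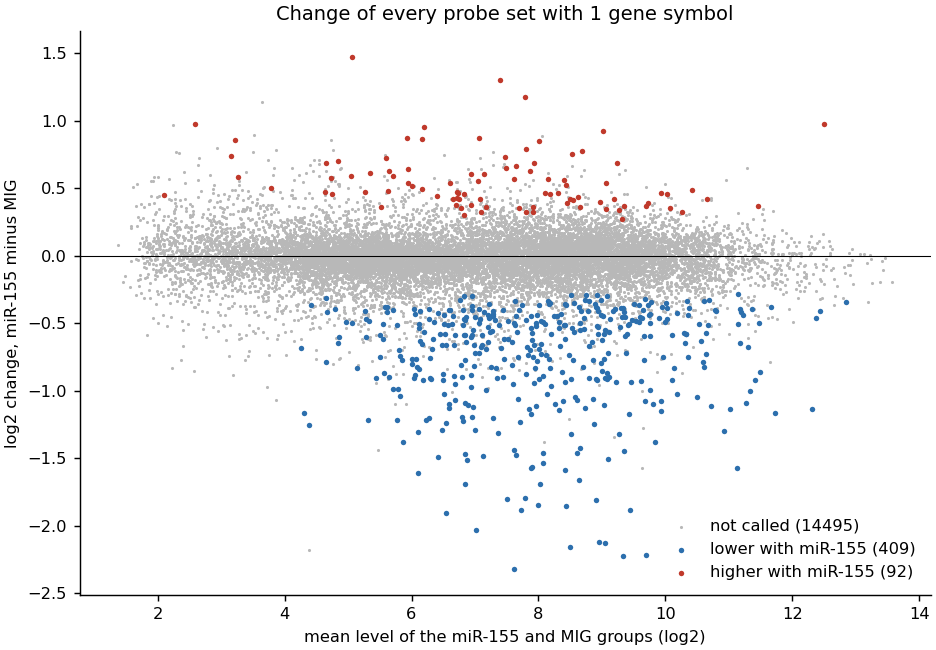
Each point is 1 of 14996 probe sets with 1 gene symbol, with the mean level of the miR-155 and MIG groups on the x axis (log2) and the log2 change, miR-155 minus MIG, on the y axis. Red points are the 92 called higher with miR-155 and blue points the 409 called lower; the blue points reach further from 0 and lie mostly above a level of 5.

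The counts moved with the processing. After quantile normalization, 162 rose and 402 fell. A fit on these 6 arrays alone, which leaves out the spread of the other groups, called 803. Leaving out 1 array left 215 to 383 called: 234, 383 and 272 without miR-155 arrays 1, 2 and 3, and 272, 216 and 215 without MIG arrays 1, 2 and 3. In all of these runs, 0 probe sets were called in opposite directions. On a common array median or after quantile normalization the calls of Spi1, Tab2, Slc7a11, Jak2, Sla, Myd88, Gfi1, Kit, E2f2, Npc1, Ccl9, Itga2b and Treml1 were lost in at least 1 case. The per-array plot of the genes with the most extreme changes shows how the groups separate gene by gene.

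**Figure D2:**
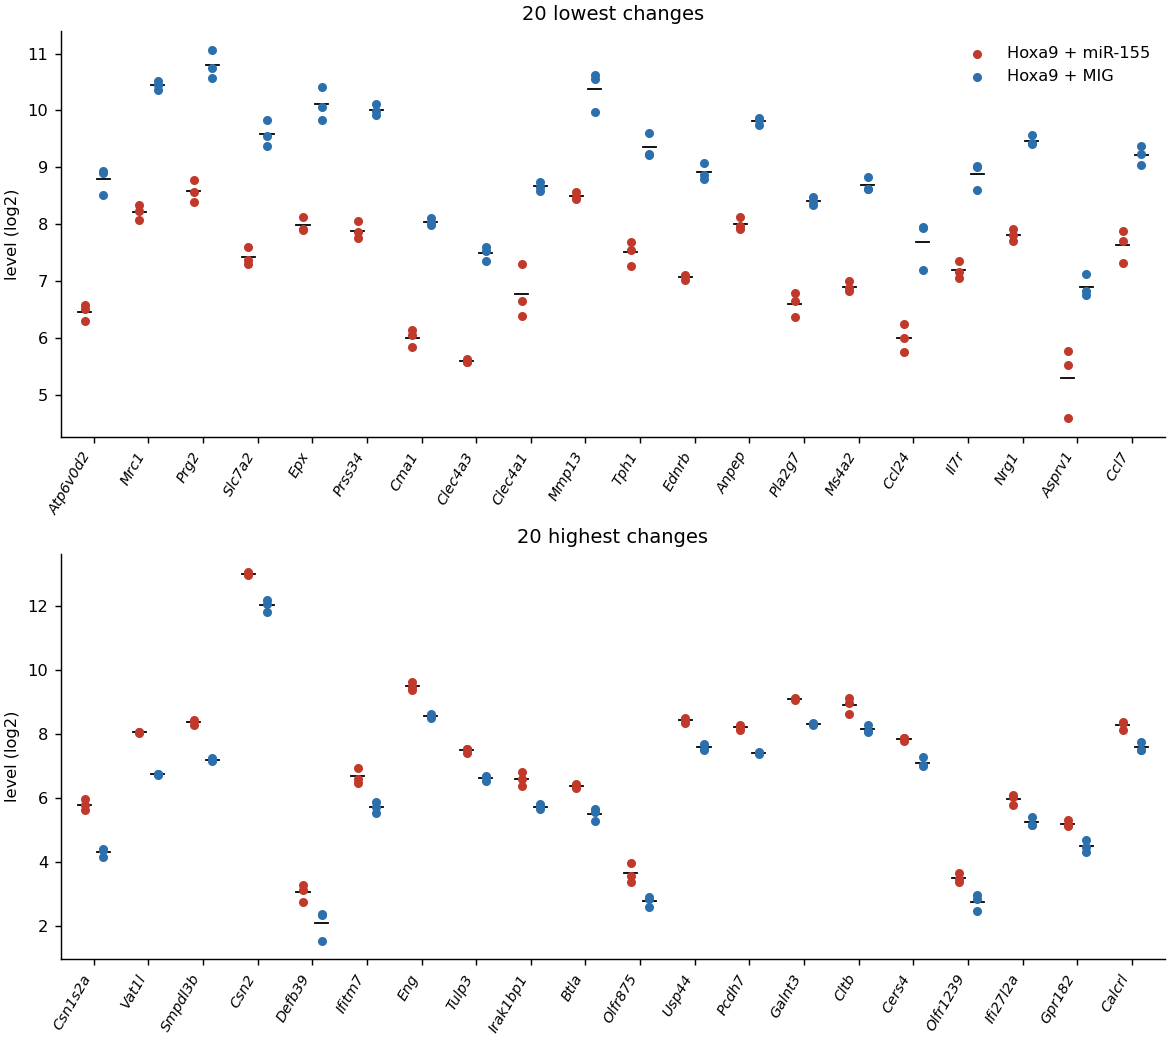
Levels (log2, y axis) on single arrays for the 20 lowest (top) and 20 highest (bottom) changes among named genes on the x axis, with red points for Hoxa9 + miR-155, blue points for Hoxa9 + MIG, and black bars for group means. In every gene shown the 3 red points and the 3 blue points do not overlap.

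Known targets of miR-155 were measured in 39 of 46 listed cases, and 14 fell (35.9%, against 2.73% of all probe sets) while 0 rose. Their median log2 change was -0.39, against -0.01 over all genes, and 32 of 39 changes were negative. The list was written from textbook roles, with an earlier report on these arrays known, and its Csf1r is also on the macrophage list. Whichever array was left out, fewer were called, 5 to 9 of them.

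Among the nuclear targets, 5 of 16 measured fell (31.2% called, against 3.34% of all probe sets), with a median of -0.42. Jarid2, a protein that brings the Polycomb repressor PRC2 to chromatin, read 8.62, 8.66 and 8.69 with miR-155, against 9.38, 9.46 and 9.42 with MIG. The 2 groups stood far apart relative to their spread, and Jarid2 fell (-0.76 ± 0.06, adjusted p = 0.000324). Bach1, a repressor of haem and antioxidant genes, read 8.29, 8.29 and 8.22 with miR-155 and 8.68, 8.80 and 8.92 with MIG. Its MIG arrays spread more than its miR-155 arrays, and it fell by 0.53 ± 0.07 on the log2 scale (adjusted p = 0.00373). Both calls held whichever array was left out. The zinc finger gene Zfp652 (-0.51 ± 0.10, adjusted p = 0.0183), the myeloid factor Spi1, or PU.1 (-0.50 ± 0.12, adjusted p = 0.0496), and Cebpb (-0.46 ± 0.10, adjusted p = 0.0389) also fell. Zfp652 and Spi1 lost their call whichever array was left out (adjusted p up to 0.0884 and 0.158), Spi1 also on a common array median and after quantile normalization (0.0806). Cebpb lost its call without any array but miR-155 array 2 (up to 0.155). Of 25 listed Polycomb genes measured, Jarid2 alone was called (4.0%, near the 3.34% of all probe sets), and the catalytic subunit Ezh2 read 8.91, 9.03 and 9.0 with miR-155 and 8.89, 8.93 and 8.98 with MIG.

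Among the signalling targets, 7 of 17 measured fell (41.2% called, against 3.34% of all probe sets), with a median of -0.39. Il13ra1, a chain of the receptor for interleukins 4 and 13, read 7.72, 7.80 and 7.60 with miR-155, against 8.76, 8.92 and 8.72 with MIG, the lowest change of the list (-1.10 ± 0.14, adjusted p = 0.00222). Csf1r, the receptor for macrophage colony-stimulating factor, fell by as much (-1.09 ± 0.20, adjusted p = 0.0164), and without any array but miR-155 array 2 it missed the threshold (up to 0.0738). The SE of Csf1r takes in the MIY arrays, at 10.48 and 9.57. Inpp5d, the inositol phosphatase SHIP1, read 9.81, 9.90 and 9.79 with miR-155, against 10.16, 10.24 and 10.26 with MIG. This small fall was steady over arrays (-0.39 ± 0.06, adjusted p = 0.00854), though without MIG array 3 it just missed (0.0512). The kinase Rps6ka3 fell by 0.46 ± 0.08, and lost its call without miR-155 array 1 or MIG array 1 or 2 (up to 0.0624). The adaptors Sla, Myd88 and Tab2 had log2 changes of -0.59 ± 0.13, -0.58 ± 0.13 and -0.39 ± 0.08, each called (adjusted p = 0.0419, 0.04 and 0.0359), and each lost the call whichever array was left out (up to 0.159, 0.159 and 0.151). Socs1, an inhibitor of cytokine receptors, read 8.54, 8.69 and 8.44 with miR-155 and 8.81, 8.80 and 8.84 with MIG. Its arrays did not overlap, yet its change of -0.26 ± 0.07 did not pass (adjusted p = 0.105).

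Of 6 measured targets with other roles, the tetraspanin Tspan14 (-0.67 ± 0.09, adjusted p = 0.00289) and the creatine synthesis enzyme Gatm (-0.55 ± 0.10, adjusted p = 0.0177) fell. Gatm kept its call only without miR-155 array 2 or MIG array 3 (otherwise up to 0.0852). Positive changes among the targets were at most 0.16, and none of them passed.

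**Figure D3:**
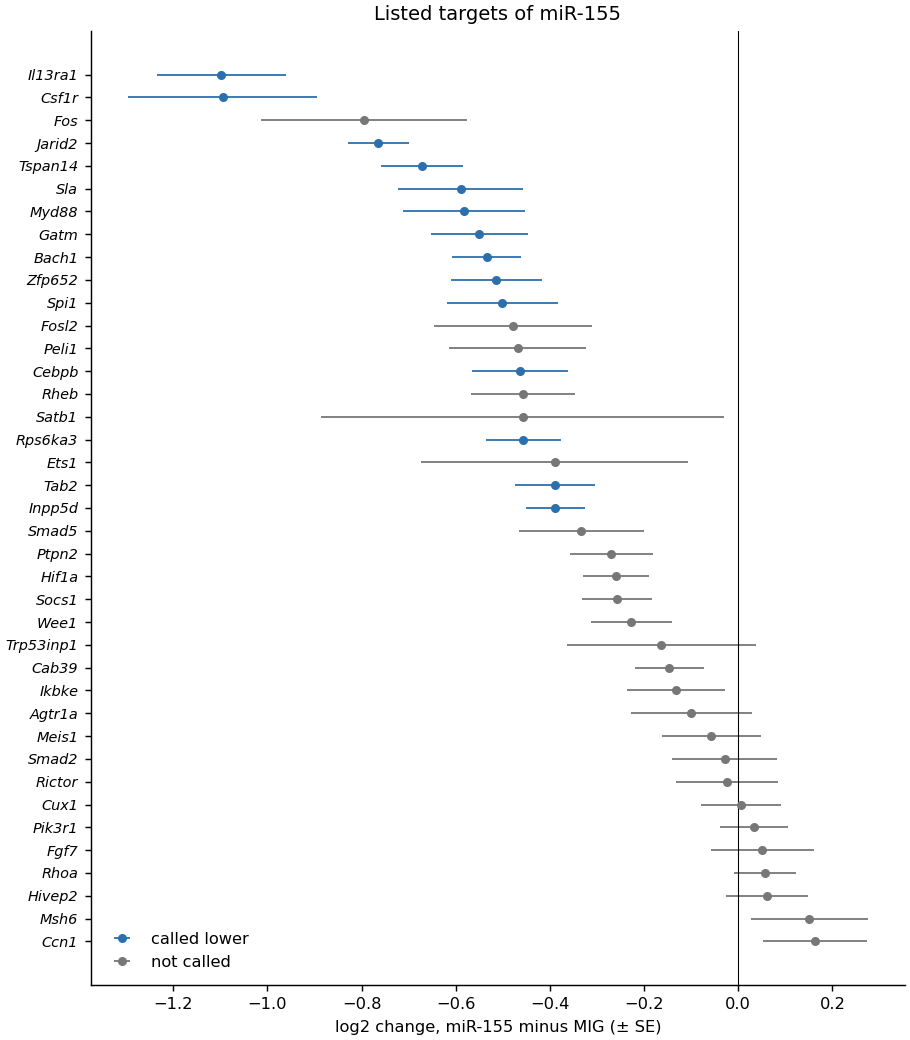
Log2 change, miR-155 minus MIG (x axis, with limma's SE as bars), for the 39 measured genes on the list of miR-155 targets (y axis). The 14 called lower are blue and the others grey; Il13ra1 and Csf1r have the lowest changes, and no target was called higher.

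Mast cells and basophils are granulocytes that store proteases and histamine. Of 9 measured proteases, 6 fell and 0 rose (66.7% called, against 3.34% of all probe sets), with a median log2 change of -1.09. The mast cell and basophil protease Prss34 read 7.86, 8.05 and 7.75 with miR-155, against 10.11, 9.92 and 9.99 with MIG. The arrays of the groups were far apart (-2.12 ± 0.09, adjusted p = 4.35e-06). The chymase Cma1 read 6.04, 5.84 and 6.13 with miR-155, against 8.11, 8.03 and 7.98 with MIG (-2.03 ± 0.19, adjusted p = 0.000485). Mcpt8, a basophil granule protease, and Cpa3, the mast cell carboxypeptidase, fell less. Mcpt8 read 10.12, 10.38 and 10.31 with miR-155 and 11.78, 11.45 and 11.50 with MIG (-1.30 ± 0.11, adjusted p = 0.000324). Cpa3 read 11.65, 11.86 and 11.72 with miR-155 and 13.03, 12.81 and 12.79 with MIG (-1.13 ± 0.09, adjusted p = 0.000324). The tryptases Tpsg1 (-1.09 ± 0.12) and Tpsb2 (-0.51 ± 0.08) fell as well, Tpsb2 not without MIG array 3 (adjusted p = 0.0534). Mcpt1 and Ctsg had changes of 0.09 and 0.01 and did not pass.

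Of 19 measured genes for the IgE receptor, for amines and for the mast cell surface, 9 fell. That was 47.4% called, against 3.34% of all probe sets. All 19 changes were negative, and the median was -0.43. Tph1, the first enzyme of serotonin synthesis, read 7.27, 7.68 and 7.55 with miR-155, against 9.61, 9.23 and 9.22 with MIG (-1.85 ± 0.23, adjusted p = 0.00194). Ms4a2, the beta chain of the IgE receptor, read 6.87, 6.99 and 6.82 with miR-155, against 8.83, 8.62 and 8.61 with MIG (-1.79 ± 0.20, adjusted p = 0.00132). The alpha chain Fcer1a fell by 1.32 ± 0.28, with MIG arrays as far apart as 9.57 and 8.87, and lost its call whichever array was left out (adjusted p up to 0.132). Hdc, which makes histamine, fell by 1.15 ± 0.15, the vesicular amine carrier Slc18a2 by 0.89 ± 0.11, and the adenosine receptor Adora3 by 1.44 ± 0.19. Mast and basophil markers as a whole averaged 8.92 to 9.13 on the miR-155 arrays, against 10.38 to 10.65 on the MIG arrays, and 6 of 6 were called lower. With MIY, Cpa3 read 11.63 and 11.38, Ms4a2 6.74 and 5.83, and Tph1 5.89 and 6.87, below each miR-155 array. Cma1 read 5.56 and 6.32 there, on either side of its miR-155 levels. An effect of the vector on these falls was not tested. In bulk RNA, fewer cells of a type and less RNA per cell cannot be told apart, for these and the other cell type genes. Mast cell, eosinophil and macrophage markers moved with the other falls, the targets included, and their part in those results was not tested.

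The promoters of 3 of these genes are shown because they hold the letters AGATAA, a motif of the GATA factors, among which Gata2 and Gata1 act in mast cells. Each is 250 bases before to 50 after the start site (RefSeq, GRCm38.p6), with matches on either strand in capitals. Prss34 lies at chr17:25298144-25298443 on the plus strand, with its match at position -31. Cpa3 lies at chr3:20242132-20242431 on the minus strand, with its match at position -46. Ms4a2, at chr19:11623670-11623969 on the minus strand, has 3 matches.
Prss34: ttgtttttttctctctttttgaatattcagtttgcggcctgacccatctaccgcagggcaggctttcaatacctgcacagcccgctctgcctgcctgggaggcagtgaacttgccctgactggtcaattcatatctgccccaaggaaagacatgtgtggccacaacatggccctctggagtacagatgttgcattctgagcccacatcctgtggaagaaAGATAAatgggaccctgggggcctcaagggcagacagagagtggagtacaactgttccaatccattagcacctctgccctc
Cpa3: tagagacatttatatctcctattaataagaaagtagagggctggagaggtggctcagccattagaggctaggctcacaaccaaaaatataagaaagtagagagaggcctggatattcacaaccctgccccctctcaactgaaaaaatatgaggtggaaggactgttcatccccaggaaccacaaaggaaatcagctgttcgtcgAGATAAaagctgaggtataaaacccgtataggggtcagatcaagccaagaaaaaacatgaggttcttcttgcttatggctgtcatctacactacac
Ms4a2: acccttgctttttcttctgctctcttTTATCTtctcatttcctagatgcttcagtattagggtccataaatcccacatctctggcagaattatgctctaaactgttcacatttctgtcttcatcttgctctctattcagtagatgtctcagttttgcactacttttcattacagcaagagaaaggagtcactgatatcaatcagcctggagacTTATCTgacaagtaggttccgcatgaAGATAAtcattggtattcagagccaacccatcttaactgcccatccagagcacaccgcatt
AGATAA stood in 3 of 7 protease promoters in the table (42.9%) and in 6 of 17 of the IgE and amine list (35.3%), against 9.07% of the 11869 promoters of measured genes. It stood in 8.13% of the promoters of the genes called lower, near that background. Mcpt8, Cma1 and Epx have no match in this window. Gata2 itself read 8.90, 9.25 and 8.82 with miR-155 and 9.93, 9.96 and 9.88 with MIG. It fell by 0.93 ± 0.19 (adjusted p = 0.0237), a call lost without any array but miR-155 array 2 (up to 0.0977). Gata1 read 6.31, 6.75 and 6.58 with miR-155 and 7.19, 7.09 and 7.26 with MIG, and fell by 0.64 ± 0.10 (adjusted p = 0.00817).

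Of 8 measured eosinophil genes, 4 fell and 0 rose, with a median log2 change of -0.79, and all 4 calls held whichever array was left out. Prg2, the major basic protein, read 8.39, 8.78 and 8.57 with miR-155, against 10.57, 10.75 and 11.07 with MIG (-2.21 ± 0.30, adjusted p = 0.00342). Epx, the eosinophil peroxidase, read 7.92, 8.13 and 7.89 with miR-155, against 9.84, 10.06 and 10.42 with MIG (-2.13 ± 0.25, adjusted p = 0.00158). For both, each miR-155 array lay at least 1.5 below each MIG array on the log2 scale. Prg3 (-1.38 ± 0.22) and the sialic acid lectin Siglecf (-0.96 ± 0.08) completed the list's falls. With MIY, Prg2 read 8.89 and 7.48, on either side of its miR-155 levels, and Epx 7.52 and 6.45, below its own. Siglecf read 8.67 and 8.52 there, near MIG. The chemokine receptor Ccr3 read 4.10, 4.64 and 4.79 with miR-155 and 4.78, 5.04 and 5.55 with MIG, overlapping groups. Il5ra, the eosinophil receptor for interleukin 5, read 3.11 to 3.28 with miR-155 and 3.21 to 3.33 with MIG.

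Lipid mediators of these cells changed in part. Of 17 measured enzymes and receptors, 3 fell and 1 rose (23.5% called, against 3.34% of all probe sets), with a median of -0.12. Pla2g7, which breaks down platelet-activating factor, read 6.65, 6.78 and 6.36 with miR-155, against 8.33, 8.47 and 8.41 with MIG (-1.81 ± 0.22, adjusted p = 0.00191). The leukotriene receptor Cysltr1 fell by 0.95 ± 0.14 (adjusted p = 0.00575) and the leukotriene enzyme Ltc4s by 0.56 ± 0.13 (adjusted p = 0.0467). The prostaglandin receptor Ptger4 rose, with 8.40, 8.48 and 8.34 with miR-155 and 7.89, 8.04 and 7.91 with MIG (0.46 ± 0.10, adjusted p = 0.0337). The calls of Ltc4s and Ptger4 were lost whichever array was left out (up to 0.178 and 0.131).

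Of 24 measured genes of monocyte and macrophage identity, 10 fell and 0 rose (41.7% called, against 3.34% of all probe sets). Their median log2 change was -0.40. The tyrosine kinase Mertk, which takes up dying cells, read 6.10, 6.35 and 5.90 with miR-155, against 7.46, 7.64 and 7.66 with MIG (-1.47 ± 0.15, adjusted p = 0.000905). Fibronectin, Fn1, read 10.79, 10.85 and 10.55 with miR-155, against 11.74, 11.81 and 11.90 with MIG (-1.09 ± 0.11, adjusted p = 0.000704). The lysosomal glycoprotein Cd68 fell by 0.67 ± 0.10 and the chemokine receptor Ccr2 by 0.64 ± 0.11. The call of Ccr2 held only without MIG array 3 (otherwise up to 0.0687). Without miR-155 array 1, MIG array 2 or MIG array 3, the list had 5, 4 and 5 falls. All 5 measured macrophage markers were called lower, averaging 8.54 to 8.85 on the miR-155 arrays and 9.68 to 9.82 on the MIG arrays.

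C-type lectins, receptors that bind sugars of microbes, were lower in 5 of 18 measured cases and higher in 0 (27.8% called). The mannose receptor Mrc1 read 8.23, 8.34 and 8.08 with miR-155, against 10.45, 10.36 and 10.52 with MIG. It fell by 2.22 ± 0.38 (adjusted p = 0.0115), and it just missed without miR-155 array 3 or MIG array 3 (up to 0.0536). The SE of Mrc1 takes in the MIY arrays, at 9.6 and 7.58, while the SDs with miR-155 and MIG were 0.13 and 0.08. Clec4a3 read 5.57, 5.62 and 5.57 with miR-155 and 7.60, 7.53 and 7.35 with MIG (-1.91 ± 0.14, adjusted p = 0.000284). The beta-glucan receptor Clec7a (-1.08 ± 0.09) and Clec4n (-0.93 ± 0.14) fell whichever array was left out. Of 12 measured complement and Fc receptor genes, 2 fell (16.7% called, against 3.34% of all probe sets). C3ar1, the receptor for the C3a fragment, read 11.13, 11.03 and 10.68 with miR-155 and 11.78, 11.88 and 11.95 with MIG (-0.92 ± 0.13, adjusted p = 0.00458). C1qa had arrays from 4.54 to 5.79 with miR-155 and from 6.13 to 6.62 with MIG, a fall of 1.21 ± 0.27 that missed without any array but miR-155 array 2 (up to 0.154).

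Lysosomes hold the hydrolases that break down material taken up by macrophages. Of 30 measured hydrolases and membrane proteins, 8 fell and 0 rose (26.7% called, against 3.34% of all probe sets). Of the 30 changes, 28 were negative, and the median was -0.27. The asparagine protease Lgmn read 8.60, 8.78 and 8.51 with miR-155, against 9.86, 10.18 and 10.19 with MIG (-1.44 ± 0.11, adjusted p = 0.000324). The cathepsin Ctsl read 9.90, 9.97 and 10.04 with miR-155, against 10.90, 11.04 and 11.11 with MIG (-1.04 ± 0.09, adjusted p = 0.000324). Plbd1 (-1.58 ± 0.17) and Ctsk, the collagen-degrading cathepsin (-1.49 ± 0.17), fell further. With MIY, Ctsk read 5.32 and 4.98, below its miR-155 levels, and Plbd1 9.49 and 8.88, above its MIG levels. The cathepsin Ctsd, which did not pass, read 12.30, 12.31 and 12.13 with miR-155 and 12.48, 12.49 and 12.56 with MIG (adjusted p = 0.096). Without miR-155 array 1 or 3 or any 1 MIG array, the list had 4 or 5 falls. The E-box letters CACGTG, which the lysosomal regulator Tfeb can bind, stood in 10 of 25 promoters of this list (40.0%) and in 8.87% of all promoters, but in 9.04% of those of the genes called lower.

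The vacuolar proton pump acidifies lysosomes. Of 15 measured pump genes, 1 was called (6.67%, against 3.34% of all probe sets). This was Atp6v0d2, a subunit known from osteoclasts and macrophages, which read 6.51, 6.57 and 6.30 with miR-155, against 8.52, 8.94 and 8.90 with MIG. It had the lowest change of all probe sets called (-2.32 ± 0.19, adjusted p = 0.000324). With MIY, Atp6v0d2 read 6.01 and 5.34, below each miR-155 array. The list's median was -0.20.

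Genes for enzymes that remodel matrix and for their inhibitors fell in 7 of 18 measured cases and rose in 0. That was 38.9% called, against 3.34% of all probe sets, and the median was -0.42. The collagenase Mmp13 read 8.48, 8.57 and 8.45 with miR-155, against 9.97, 10.55 and 10.63 with MIG (-1.88 ± 0.16, adjusted p = 0.000324). The elastase Mmp12 read 11.17, 11.18 and 11.11 with miR-155, against 12.19, 12.36 and 12.39 with MIG (-1.16 ± 0.09, adjusted p = 0.000284). With MIY, Mmp12 read 10.26 and 10.36, below its miR-155 levels. Mmp13 read 9.27 and 9.56 there, between its miR-155 and MIG levels. Inhibitors of such enzymes fell too, Timp2 by 1.51 ± 0.17 (adjusted p = 0.00149) and Timp1 by 0.75 ± 0.14 (adjusted p = 0.0159). Timp1 lost its call without miR-155 array 1 or 3 or MIG array 2 or 3 (up to 0.0734). Without miR-155 array 1 or 3 or MIG array 2 or 3, the list had 3 falls.

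The cationic amino acid transporter Slc7a2 read 7.37, 7.60 and 7.30 with miR-155, against 9.37, 9.55 and 9.83 with MIG (-2.16 ± 0.12, adjusted p = 4.54e-05). Arginase, Arg1, which splits arginine, read 10.25, 10.33 and 10.46 with miR-155, against 11.84, 11.84 and 12.07 with MIG (-1.57 ± 0.16, adjusted p = 0.000684). With MIY, Arg1 read 10.69 and 9.98, on either side of its miR-155 levels. Of 17 measured genes of arginine use and amino acid transport, 4 fell and 0 rose (23.5% called, against 3.34% of all probe sets). The others were Slc7a8 (-1.02 ± 0.18, lost without MIG array 2 or 3, adjusted p up to 0.0638) and the cystine transporter Slc7a11 (-0.64 ± 0.14, lost whichever array was left out, up to 0.163, and under both other scalings of the arrays).

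Lipid handling genes of macrophages fell in 4 of 17 measured cases (23.5% called, against 3.34% of all probe sets). The glycoprotein Gpnmb (-1.01 ± 0.15, adjusted p = 0.00643) kept its call whichever array was left out. Fabp4, a fatty acid carrier (-0.90 ± 0.16), Apoe (-0.80 ± 0.15) and the cholesterol exporter of lysosomes Npc1 (-0.35 ± 0.08) did not. Fabp4 lost it without miR-155 array 3 or MIG array 2 or 3 (adjusted p up to 0.0623), Apoe without any array but MIG array 1 (up to 0.0939), and Npc1 likewise (up to 0.16).

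The primary granule list also holds regulators such as Cebpa, Myb and Gfi1. Of its 12 measured genes, 2 fell (16.7% called, against 3.34% of all probe sets). These were Nkg7, also on the T and NK cell list (-0.92 ± 0.17, adjusted p = 0.0151), and the repressor Gfi1 (-0.42 ± 0.10, adjusted p = 0.0442). The elastase Elane read 13.46, 13.55 and 13.39 with miR-155 and 13.70, 13.68 and 13.62 with MIG, which did not pass although the arrays did not overlap (-0.20 ± 0.22, adjusted p = 0.772). The peroxidase Mpo did not pass either (-0.34 ± 0.09, adjusted p = 0.0682). Of 24 late neutrophil genes, 3 fell (12.5% called, against 3.34% of all probe sets), with a median of -0.37: lactoferrin Ltf (-1.25 ± 0.27), Lrg1 (-0.91 ± 0.19) and Chil1 (-0.76 ± 0.09). Ltf varied little within the miR-155 and MIG groups (SD 0.04 and 0.05), but its SE takes in the MIY arrays, at 8.61 and 7.22. Chil1 alone kept its call whichever array was left out (adjusted p of the others up to 0.13 and 0.137). Nkg7 lost it without MIG array 1 or 2 (up to 0.0728) and Gfi1 whichever array was left out (up to 0.165). The alarmins S100a8 and S100a9 had changes of -0.05 ± 0.26 and -0.09 ± 0.29 and did not pass.

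Of 25 measured inflammatory cytokines and regulators, 3 fell and 0 rose (12.0% called, against 3.34% of all probe sets). Il6 read 6.93, 7.29 and 6.50 with miR-155, against 8.49, 8.34 and 8.33 with MIG (-1.48 ± 0.18, adjusted p = 0.00185). Il1f9, which encodes an interleukin 36 (-1.57 ± 0.15, adjusted p = 0.000613), and Il1a (-1.22 ± 0.23, adjusted p = 0.0171) were the others. With MIY, Il6 read 6.86 and 6.56, within its miR-155 range, and Il1a 8.34 and 8.09, above its MIG levels. Il1a lost its call without MIG array 2 or 3 (up to 0.0826). Of 30 chemokines and receptors, 7 fell (23.3% called, against 3.34% of all probe sets). Ccl24, an eosinophil attractant (-1.69 ± 0.31), lost its call without miR-155 array 1 or 3 or MIG array 1 or 3 (adjusted p up to 0.0779), and Ccl7 (-1.59 ± 0.36) whichever array was left out (up to 0.149). The SE of Ccl7 takes in the MIY arrays, at 9.51 and 7.71. The receptor Ccr1 read 9.97, 9.97 and 9.99 with miR-155, against 10.53, 10.73 and 10.62 with MIG (-0.65 ± 0.11, adjusted p = 0.0105), a fall missed without MIG array 2 (0.056). Without any 1 array, 1 to 3 genes of the chemokine list were called. Of 16 NF-kB factors and feedback genes, Tnip3 alone was called (-0.90 ± 0.14, adjusted p = 0.00725), a share of 6.25% against 3.34% of all probe sets.

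Of 28 measured receptors for cytokines and growth factors, 7 fell and 1 rose (28.6% called, against 3.34% of all probe sets). Il7r, the interleukin 7 receptor, read 7.05, 7.35 and 7.15 with miR-155, against 8.60, 9.0 and 9.02 with MIG (-1.69 ± 0.15, adjusted p = 0.000324). Il6st, the signalling chain gp130, read 9.26, 9.28 and 8.91 with miR-155, against 10.03, 10.14 and 10.05 with MIG (-0.92 ± 0.14, adjusted p = 0.00588). SCF and IL3 were in the medium. Kit, the receptor of SCF, read 9.40, 9.57 and 9.66 with miR-155 and 9.91, 9.89 and 9.92 with MIG, a fall of 0.37 ± 0.08 (adjusted p = 0.0299) lost without any array but miR-155 array 3 (up to 0.117). Il3ra, the alpha chain for IL3, read 8.78, 8.86 and 8.83 with miR-155 and 8.76, 8.87 and 8.91 with MIG (adjusted p = 0.937). Eng, or endoglin, a co-receptor for TGF-beta, rose, with 9.46, 9.62 and 9.38 with miR-155, against 8.50, 8.62 and 8.55 with MIG (0.93 ± 0.12, adjusted p = 0.00222). With MIY, Eng read 9.16 and 9.64, near its miR-155 levels. Without miR-155 array 1 or 3 or any 1 MIG array, the list had 2 or 3 falls.

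Immediate early genes, which answer signals within minutes, fell in 5 of 27 measured cases and rose in 0. That was 18.5% called, against 3.34% of all probe sets, and the median was -0.36. Egr2 read 7.89, 8.14 and 7.82 with miR-155, against 9.29, 9.36 and 9.48 with MIG (-1.42 ± 0.14, adjusted p = 0.000613). The stress factor Atf3 (-0.77 ± 0.10, adjusted p = 0.00307), the phosphatase Dusp1 (-0.82 ± 0.14, adjusted p = 0.0111) and the signalling inhibitor Spred1 (-0.35 ± 0.06, adjusted p = 0.00983) fell, Dusp1 not without MIG array 2 or 3 (up to 0.0562) and Spred1 not without MIG array 3 (0.0546). Of 40 measured transcription factors of myeloid and erythroid cells, 8 fell and 0 rose, among them Nfe2l2, the antioxidant regulator NRF2 (-0.73 ± 0.08, adjusted p = 0.0013). Whichever array was left out, 2 to 5 genes of this list were called lower.

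The rises were fewer. Csn1s2a, which encodes a milk casein, read 5.63, 5.77 and 5.98 with miR-155, against 4.42, 4.38 and 4.16 with MIG, the highest change of all probe sets called (1.47 ± 0.12, adjusted p = 0.000324). Its neighbour Csn2, beta-casein, read 12.95, 13.04 and 12.97 with miR-155 and 11.79, 12.06 and 12.18 with MIG. Csn2 rose by 0.98 ± 0.20 (adjusted p = 0.0275), a call lost whichever array was left out (adjusted p up to 0.104). In the same cluster, Csn1s1 read 3.14, 3.12 and 3.28 with miR-155 and 2.68, 2.71 and 2.81 with MIG, which did not pass (0.45 ± 0.27, adjusted p = 0.501). Csn3 overlapped between the groups. Of 19 genes of the STAT5 list measured, 15.8% were called, against 3.34% of all probe sets. The 2 caseins rose and the kinase Jak2 fell (-0.37 ± 0.08, adjusted p = 0.0298, up to 0.119 whichever array was left out). The STAT5 target Cish read 11.00, 11.13 and 10.95 with miR-155 and 10.86, 10.99 and 10.98 with MIG.

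Both casein promoters are shown because they hold TTCNNNGAA, the letters bound by STAT factors (N is any base, matches in capitals). Csn2 lies at chr5:87699376-87699675 on the minus strand with its match at position -93, and Csn1s2a at chr5:87774200-87774499 on the plus strand with its match at position 20.
Csn2: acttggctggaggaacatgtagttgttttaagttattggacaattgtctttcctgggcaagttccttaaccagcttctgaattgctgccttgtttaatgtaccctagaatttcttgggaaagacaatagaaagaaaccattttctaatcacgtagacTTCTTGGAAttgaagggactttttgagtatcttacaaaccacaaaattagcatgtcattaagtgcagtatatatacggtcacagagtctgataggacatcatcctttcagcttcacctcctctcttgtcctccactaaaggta
Csn1s2a: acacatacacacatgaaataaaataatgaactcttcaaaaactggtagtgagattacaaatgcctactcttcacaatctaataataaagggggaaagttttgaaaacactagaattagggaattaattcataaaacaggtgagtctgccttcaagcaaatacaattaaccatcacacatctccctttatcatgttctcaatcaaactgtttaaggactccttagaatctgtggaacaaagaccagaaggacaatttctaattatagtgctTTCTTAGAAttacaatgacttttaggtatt
TTCNNNGAA stood in 6 of the 14 promoters of the STAT5 list (42.9%), against 7.33% of all promoters and 2.70% of those of the genes called higher. That last share is 2 of 74 promoters, those of Csn2 and Csn1s2a themselves, which are also on the STAT5 list.

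Several rises stood out by how little the arrays of a group varied. Vat1l, a relative of a vesicle amine transport protein, read 8.05, 8.06 and 8.03 with miR-155, against 6.75, 6.75 and 6.73 with MIG (1.30 ± 0.10, adjusted p = 0.000284). Galnt3, which starts the sugar chains of mucin-type proteins, read 9.05, 9.09 and 9.11 with miR-155, against 8.33, 8.28 and 8.30 with MIG (0.78 ± 0.06, adjusted p = 0.000261). The adhesion protein Pcdh7 read 8.28, 8.11 and 8.21 with miR-155, against 7.42, 7.37 and 7.44 with MIG (0.79 ± 0.07, adjusted p = 0.000344). Usp44, a deubiquitinase, rose by 0.85 ± 0.08 (adjusted p = 0.00066). These 4 calls held whichever array was left out. Usp44 read 8.81 and 9.01 on the MIY arrays, above each miR-155 array (8.43, 8.35 and 8.5). Vat1l (5.67 and 5.39), Galnt3 (8.23 and 8.2) and Pcdh7 (7.8 and 7.69) lay below their miR-155 levels with MIY. Smpdl3b, a phosphodiesterase of the cell surface, read 8.39, 8.44 and 8.28 with miR-155 and 7.19, 7.25 and 7.14 with MIG. Its MIY arrays lay at 9.13 and 7.81, and its rise of 1.18 ± 0.25 (adjusted p = 0.0338) was lost whichever array was left out (up to 0.123). The same held for Tulp3 (0.87 ± 0.20, adjusted p = 0.0434, up to 0.137), the inhibitory receptor Btla (0.87 ± 0.20, adjusted p = 0.0466, up to 0.176) and Calcrl (0.69 ± 0.15, adjusted p = 0.0389, up to 0.149). Means on the MIY arrays were 7.0 for Tulp3, 6.81 for Btla and 8.26 for Calcrl, against 7.49, 6.36 and 8.28 with miR-155.

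Among 30 measured stem cell and leukaemia genes, 3 rose and 2 fell (16.7% called, against 3.34% of all probe sets), and the median was 0.00. The transcription factor Hlf read 7.96, 7.97 and 7.78 with miR-155, against 7.36, 7.40 and 7.25 with MIG (0.57 ± 0.10, adjusted p = 0.0117), a rise missed without miR-155 array 1 or MIG array 3 (up to 0.061). Eya1 rose by 0.52 ± 0.10 (adjusted p = 0.0164), not without miR-155 array 1 or 2 or MIG array 1 or 3 (up to 0.0786). Hoxa7, a neighbour of Hoxa9, rose by 0.42 ± 0.10 (adjusted p = 0.0431), and held only without MIG array 2 (otherwise up to 0.17). The progenitor marker Cd34 read 10.01, 10.15 and 10.01 with miR-155 and 9.96, 9.85 and 9.86 with MIG (adjusted p = 0.844).

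Interferon-stimulated genes and cholesterol synthesis genes had the highest list medians, 0.24 and 0.27. Of 22 measured interferon genes, 2 rose (9.09% called, against 3.34% of all probe sets). Ifitm7 read 6.93, 6.61 and 6.48 with miR-155, against 5.73, 5.88 and 5.55 with MIG (0.95 ± 0.14, adjusted p = 0.00538), and Ifi27l2a rose by 0.72 ± 0.12 (adjusted p = 0.0115, lost without miR-155 array 1 or MIG array 2 or 3, up to 0.0594). With MIY, Ifitm7 read 5.92 and 6.22, and Ifi27l2a read 10.46 and 10.2, far above its mean of 5.97 with miR-155. Of 18 cholesterol synthesis genes, 0 were called in limma's test, and all 18 changes lay between 0.10 and 0.61. Hmgcs1, an early enzyme of the pathway, read 10.23, 10.22 and 10.34 with miR-155 and 9.99, 9.74 and 9.47 with MIG (0.53 ± 0.13, adjusted p = 0.0615). MIG array 3 was the lowest for Hmgcs1, as it was for Lss and Sqle. The list averaged 9.61 to 9.67 on the miR-155 arrays and 9.11 to 9.46 on the MIG arrays, and up to 5 of its genes were called higher under other settings.

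Of 38 replication and mitosis genes, the mitotic kinase Aurka rose (0.37 ± 0.07, adjusted p = 0.0235) and Cdt1, Cdkn2a and E2f2 fell, with log2 changes of -0.41 ± 0.06, -0.37 ± 0.08 and -0.45 ± 0.10. That was 10.5% of the list called, against 3.34% of all probe sets. Cdt1 alone kept its call whichever array was left out (others up to 0.0963, 0.132 and 0.169). Of 18 glycolysis and hypoxia genes, 8 heat shock genes and 8 housekeeping genes, 0 were called. In lists of this size, 0 is close to the 3.34% of all probe sets.

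The plot of all lists places these groups side by side. Mast cell proteases and eosinophil genes stood at one end by their median, cholesterol and interferon genes at the other, and the housekeeping genes had a median of 0.00.

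**Figure D4:**
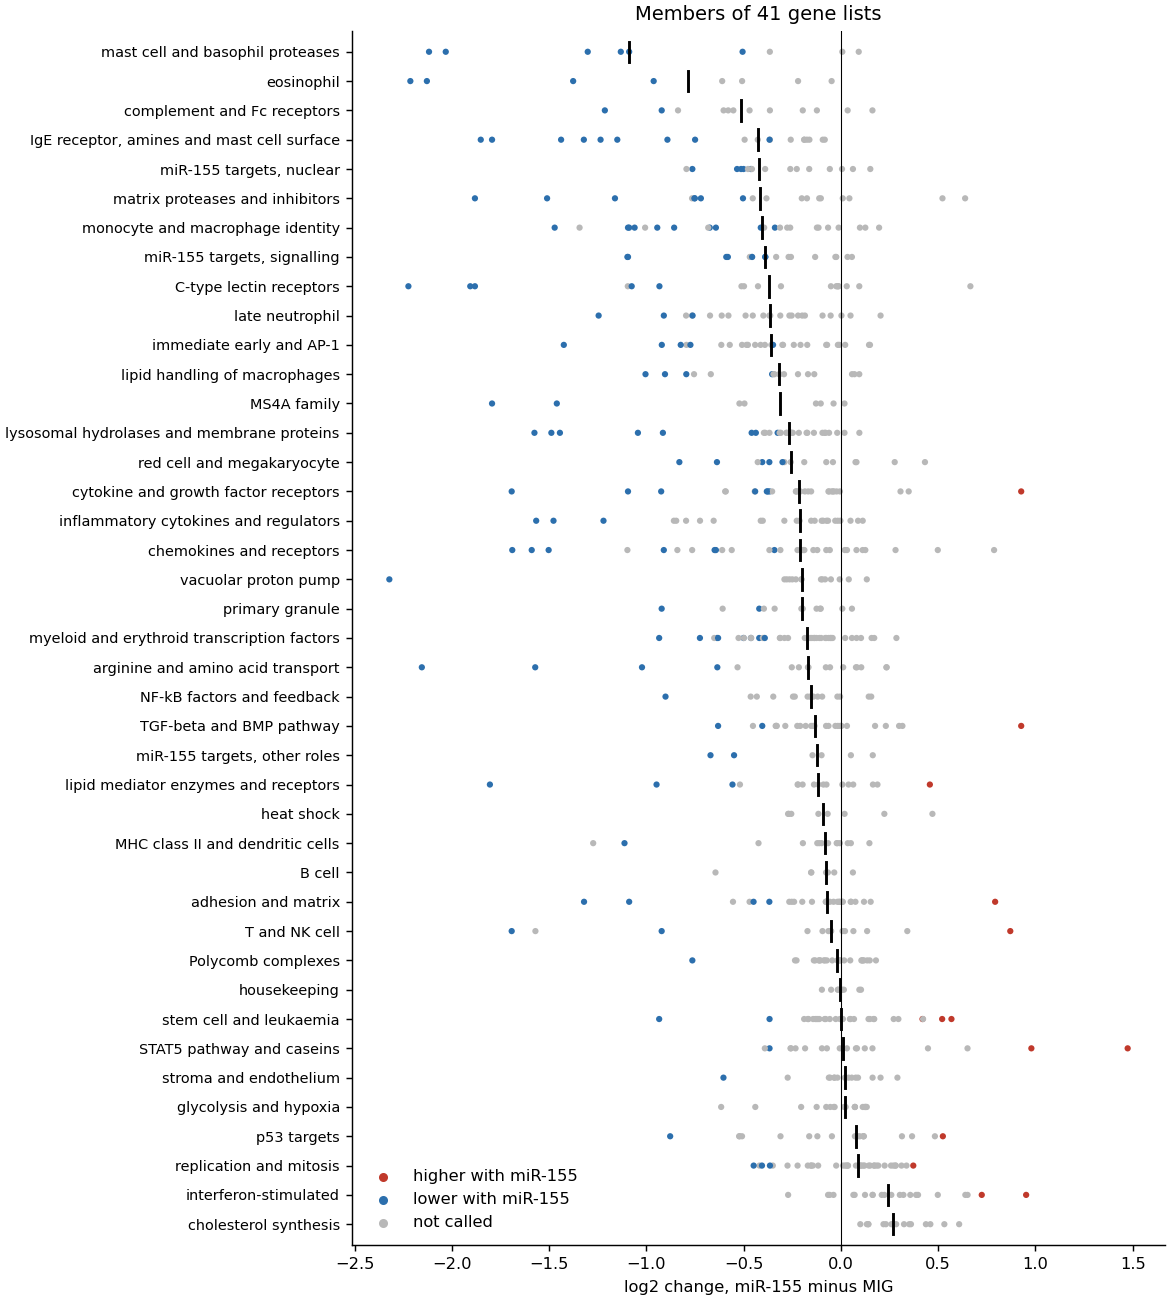
Log2 change, miR-155 minus MIG (x axis), of each measured member of 41 gene lists (y axis), with black bars for list medians. Blue members were called lower, red ones higher and grey ones not called; the medians run from -1.09 for mast cell and basophil proteases to 0.27 for cholesterol synthesis.

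Some called genes lie next to each other. Of the 497 called genes placed in the gene order, 46 (9.26%) stood next to a gene called in the same direction, in 21 runs. The share that would do so by chance was not worked out. A run of 4 falls held C3ar1, Necap1, Clec4a1 and Clec4a3. Clec4a1 read 6.65, 7.29 and 6.39 with miR-155 and 8.74, 8.66 and 8.59 with MIG (-1.88 ± 0.24, adjusted p = 0.00257), while Necap1, an endocytosis protein, changed by -0.46 ± 0.10 (adjusted p = 0.0364, lost without any array but miR-155 array 2, up to 0.152). The immune checkpoint ligands Cd274 (-0.51 ± 0.08, adjusted p = 0.00838) and Pdcd1lg2 (-0.76 ± 0.15, adjusted p = 0.0207) fell with the next gene Ric1 (-0.46 ± 0.08, adjusted p = 0.0136). Pdcd1lg2 lost its call without miR-155 array 1 or any MIG array (up to 0.0799), and Ric1 without miR-155 array 3 (0.0578). Around Hlf, Mmd (0.46 ± 0.07, adjusted p = 0.00584) and Stxbp4 (0.61 ± 0.10, adjusted p = 0.00881) rose as well, whereas the next genes outward, Tmem100 and Cox11, had changes of 0.02 and 0.05. Pairs of paralogs made up several of the 2-gene runs, among them Prg2 with Prg3, Mmp13 with Mmp12, Ctsk with Ctss, and Csn2 with Csn1s2a. These pairs were picked after their values were seen.

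The levels in the other groups put the changes in context. The MIG arrays serve as controls for both miR-155 gain and loss, so the values are given side by side without a test. Vat1l averaged 8.04 ± 0.02 with miR-155 (SD, n = 3), 6.36 ± 0.18 in the knockout (n = 3) and 6.74 ± 0.01 with MIG (n = 3), and Csn2 12.99 ± 0.04, 10.90 ± 0.07 and 12.01 ± 0.20 in the same order of groups. For these and for Pcdh7 (8.20, 6.84 and 7.41) the knockout lay on the other side of MIG. Prss34 differed. It averaged 7.89 ± 0.15 with miR-155 and 9.23 ± 0.05 in the knockout, both below 10.01 ± 0.10 with MIG. Epx was alike, at 7.98, 9.08 and 10.11 with miR-155, in the knockout and with MIG. For Mrc1 (8.22, 10.43 and 10.44) and Slc7a2 (7.43, 9.48 and 9.58) the knockout lay near MIG. Jarid2 averaged 8.66 ± 0.04 with miR-155, 9.65 ± 0.07 in the knockout and 9.42 ± 0.04 with MIG. On the MIY arrays, Prss34 read 6.79 and 6.77 and Slc7a2 5.24 and 5.39, below the levels with miR-155, whereas Jarid2 read 9.44 and 9.37, near MIG. Fn1 (7.69 and 7.51), Egr2 (5.9 and 5.51) and Mcpt8 (9.34 and 9.17) were also below their miR-155 levels with MIY. Lgmn (10.71 and 10.79) and Clec4a1 (10.38 and 9.62) were above their MIG levels there. Levels over all 12 arrays are plotted for 12 genes.

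**Figure D5:**
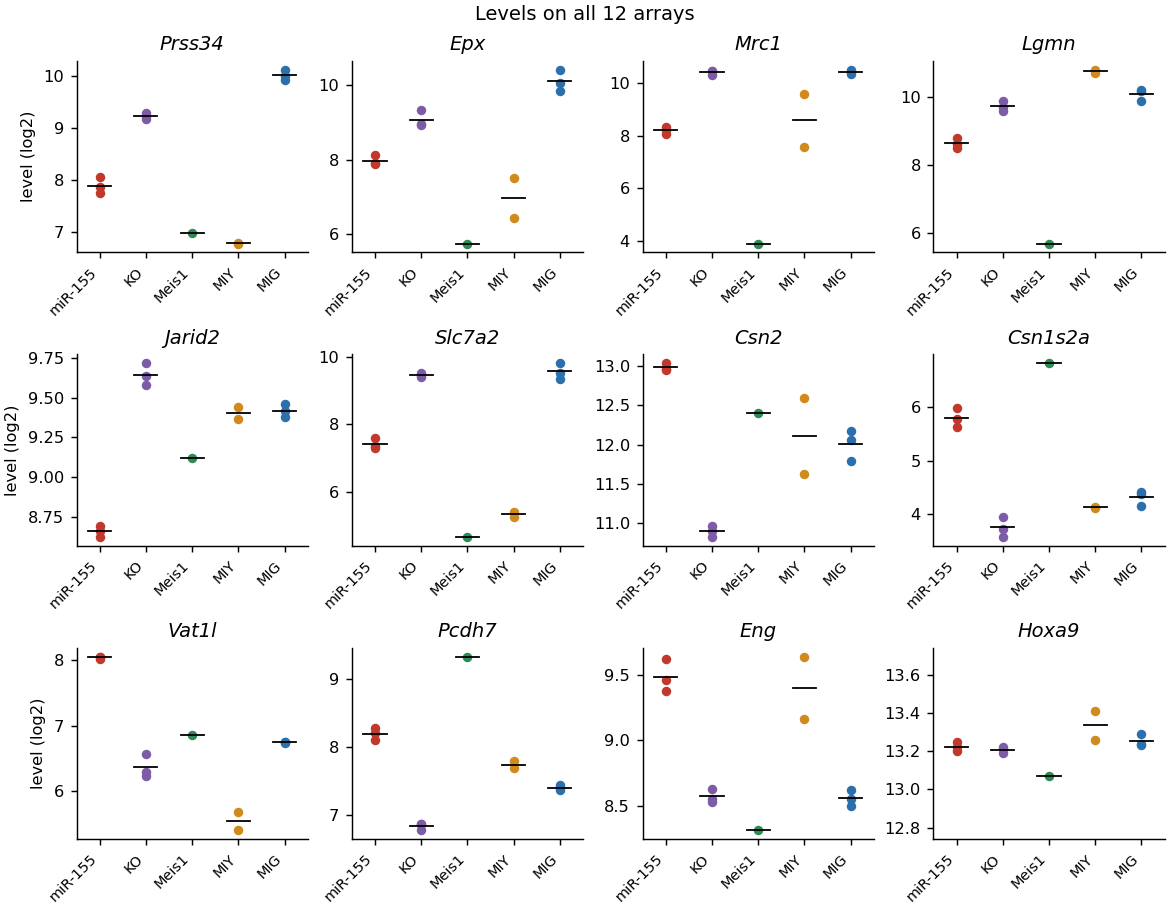
Levels (log2, y axis) of 12 genes on all 12 arrays, by group on the x axis: Hoxa9 cells with miR-155, miR-155 knockout with MIG (KO), then with Meis1, with MIY, and wild type with MIG. Points are arrays and black bars group means. Prss34, Epx and Slc7a2 are lower on the MIY arrays than with miR-155, Jarid2 is lowest with miR-155, and the y axes differ between panels.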

How the data were processed

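Total RNA of 12 mouse marrow cultures was labelled with biotin and hybridised to Affymetrix arrays. The deposited values are log2 levels, 1 per probe set and array, made by the authors with RMA and the Affymetrix Expression Console, per the submitters' processing notes. Which versions they ran remains not given in the sources used here. Of 66 pairs of arrays, 0 held identical values.

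Names came from the annotation of the array platform, which gave 1 symbol to 14996, several to 1019 and none to 7317. A mean per group was fitted over all 12 arrays (limma 3.58.1, R 4.3.3), with 7 residual degrees of freedom and 3.06 from the prior. The contrast was miR-155 minus MIG. P-values were adjusted by Benjamini-Hochberg over the 16015 probe sets with a symbol, and a gene was called at an adjusted p under 0.05. The fit was checked on simulated data. Where probe sets shared a symbol, that of highest mean level stood for the gene.

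The comparison, the 41 gene lists and the rule for named genes were chosen with earlier results of these data known. The rule took the 20 highest and 20 lowest called changes, up to 4 called members per list and direction, called targets and a few regulators, and runs of 3 or more neighbours. Other names were chosen after their values were seen. Alternatives were other scalings, arrays, filters and fits, and leaving out each array. The number of arrays limits the precision.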

Additional observations from a re-analysis of the deposited data

How the results depend on the processing

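The main count was 501 genes called. Separate fits called 803 on these 6 arrays (151 higher, 652 lower), 989 on 9 arrays without MIY and Meis1 (220 higher, 769 lower) and 308 when all 23332 probe sets were adjusted for (42 higher, 266 lower). Without 1 array, 215 to 383 were called, 24 to 45 higher and 184 to 339 lower. Quantile normalization gave 162 higher calls, and moved the median change of all genes from -0.013 to 0.012, and a common array median moved it to 0.021. Without 1 array it ran from -0.025 to 0.005. Of the 501 calls, 464 were shared with the fit on 6 arrays, 501 with that on 9 and 213 to 339 with the runs without 1 array. The change of Hoxa9 turned to 0.032 and 0.007 under the same 2 scalings, and that of Meis1 ran from -0.138 to 0.007, turning without miR-155 replicate 3. The causes were not tested. Of 134 named genes that were called, 65 lost the call in at least 1 run without 1 array. Deviations of same-numbered miR-155 and MIG arrays correlated at -0.0346, 0.128 and 0.0623. Those of MIG and knockout arrays correlated at 0.0548, 0.164 and 0.112, and those of miR-155 and knockout arrays at -0.0667, 0.127 and 0.00694. Pairs with different numbers ran from -0.146 to 0.114. The labels do not say what a replicate number shares, so whether arrays were paired was not settled, and the main fit had no block. With the replicate number as a block on 9 arrays, 1112 were called, 231 higher and 881 lower. No background signal was available, so changes at the lowest levels are inexact.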

Other observations

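Some gene families were counted by their symbols after their values were seen. Of 16 purinergic receptors, which sense extracellular nucleotides, 7 fell with added miR-155 and 0 rose, with a median log2 change of -0.43 against -0.01 over all genes, of which 3.34% were called. P2ry13 read 7.17, 7.45 and 7.29 with miR-155, against 8.97, 8.94 and 8.60 with MIG (-1.53 ± 0.22, limma adjusted p = 0.00437). P2ry12, its neighbour on the chromosome and a receptor for ADP, read 5.47, 5.62 and 5.67 with miR-155, against 6.53, 6.33 and 6.63 with MIG (-0.90 ± 0.09, adjusted p = 0.000905). The ion channels P2rx4 (-0.87 ± 0.11) and P2rx7 (-0.68 ± 0.11) fell as a neighbouring pair, P2rx7 not without MIG array 2 (adjusted p = 0.0503), whereas the platelet channel P2rx1 read 9.51, 9.46 and 9.26 with miR-155 and 9.46, 9.44 and 9.49 with MIG.

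Of 12 Toll-like receptors, 2 fell (16.7% called, against 3.34% of all probe sets), and 11 of 12 changes were negative. Tlr8, a sensor of RNA, read 6.17, 6.60 and 6.29 with miR-155, against 7.70, 7.61 and 7.62 with MIG (-1.29 ± 0.17, adjusted p = 0.00314). Tlr1 fell by 0.88 ± 0.20 (adjusted p = 0.0398) and lost its call whichever array was left out (up to 0.14). Of 316 solute carriers 22 fell and 1 rose, 7.28% in all. Of 21 ribosomal protein genes with 1 symbol 0 were called, with a median change of 0.18. Of 718 olfactory receptors, most of them at low levels, 5 rose and 1 fell, 0.836% in all.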
